A study of Mus musculus with 27 samples.

Results

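Mitochondrial ribosomal protein genes were taken from both count tables as the protein-coding genes whose mouse symbols begin with Mrpl or Mrps and a number. Of 78 such genes, 77 had at least 10 counts in at least 2 libraries of each table and were kept. They stood among 53412 gene identifiers in the minocycline table and 55421 in the enrichment table. The kept genes comprised 26 of the small subunit, 50 of the large subunit and Mrps36. Mrps36 carries the family name, but its product is now known as a component of the 2-oxoglutarate dehydrogenase complex. Mrps30 and Mrps18a carry small-subunit names and were counted with the large subunit, where their proteins sit. The gene left out was Mrpl53, with at most 4 counts in any minocycline library and at most 10 in any enrichment library. Another annotated gene on the same strand, Gm42688, shares 88.0% of its exon bases.

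The samples were RNA from CD11b+ cells of C57BJ6 mice, sorted on a FACS Aria from prefrontal cortex (PFC) or hippocampus (HC). CD11b, the product of Itgam, marks microglia, the resident macrophages of the brain, and other myeloid cells as well. In the minocycline experiment, CUMS_M mice had the CUMS protocol plus minocycline (3 PFC and 3 HC libraries), CUMS mice had the CUMS protocol (2 PFC and 3 HC), and NAIVE mice had neither (2 and 2). CUMS stands for chronic unpredictable mild stress, a sequence of changing stressors used to model depression. In the enrichment experiment every mouse was stressed. EE mice had CUMS plus environmental enrichment, that is, housing with more to explore, and VEH mice had CUMS plus vehicle (3 libraries in each region and group). No vehicle is named for the CUMS mice of the minocycline experiment, and age, sex and dose are not given in the labels used here. The labels do not say that replicates came from separate animals, and the p-values therefore describe only library-to-library spread, which may be technical.

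The mitochondrial ribosome translates the few proteins encoded by mitochondrial DNA, all of them subunits of the oxidative phosphorylation complexes. Its ribosomal RNAs come from mitochondrial DNA, while all of its proteins are encoded in the nucleus and imported. The small subunit decodes the messenger RNA, and the large subunit forms the peptide bond and feeds the new chain to the inner membrane. Tetracyclines such as minocycline block bacterial translation by binding the small subunit where the transfer RNA enters, and they also inhibit the related ribosome of mitochondria.

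Libraries held 7867323 to 15278538 counts in the minocycline table and 19519117 to 23902719 counts in the enrichment table. The defining microglial markers were high in every library, with a summed level of 34555 to 55264 CPM (counts scaled to a common library total). Some libraries went against their region label in the summed level of 6 choroid plexus markers, genes of a tissue within ventricles near the hippocampus. It was above 100 CPM in PFC CUMS_M 3, PFC VEH 2, PFC VEH 3, PFC EE 2 and PFC EE 3, and under 10 CPM in HC VEH 1 and HC VEH 2. Counts of called members and medians without these libraries are given beside the contrasts they enter. PFC NAIVE 1 had the highest summed level of neuron markers, 58.5 CPM against a median of 8.34 CPM over the minocycline libraries. The part of these cells in the results was not tested. In bulk samples, fewer cells of a type and less RNA per cell cannot be told apart.

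All 77 genes were measured well above the count filter in both tables. A gene had 26 to 782 counts in a minocycline library (median 189) and 67 to 1435 counts in an enrichment library (median 327.5). Scaled to exon length, the levels spanned 29.8-fold in the minocycline table and 18.93-fold in the enrichment table. The highest level was that of Mrpl52, a large-subunit protein with no bacterial counterpart, at 36.3 ± 6.67 CPM per kb (SD, n = 15) and 28.7 ± 5.32 CPM per kb (SD, n = 12). In the minocycline table Mrpl43 (30.8), Mrps21 (25.2), Mrpl2 (23.2) and Mrpl10 (22.8 CPM per kb) came next. In the enrichment table the genes after Mrpl52 were Mrps21 (22.6), Mrpl2 (21.3), Mrpl24 (20.9) and Mrps15 (19.9 CPM per kb). The lowest level in both tables was that of Mrpl33, at 1.22 ± 0.29 CPM per kb (SD, n = 15) and 1.51 ± 0.33 CPM per kb (SD, n = 12). Mrps10, Mrpl1, Mrpl13 and Mrps35 lay just above it at 1.40 to 1.65 CPM per kb in the minocycline table. Mrps35, Mrpl1, Mrps25 and Mrpl35 did so in the enrichment table, at 1.74 to 1.89 CPM per kb. From Mrps21 down to the fifth gene, and among the 5 lowest, neighbours in this order differed by less than the larger of their SDs in both tables. The tables shared 9 of their 10 highest and 9 of their 10 lowest genes. Exon length here is the union of all annotated exons, so a gene with a long minor transcript reads low on this scale.

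Reads of a few members cannot be told apart from those of a neighbour without the strand setting of the counting, which is not given in the sources used here. The largest such shares of exon bases were 69.8% for Mrps25 (with Nr2c2) and 63.4% for Mrps34 (with Mapk8ip3), both on the opposite strand. Mrps34 also shares 37.0% of its exon bases with Nme3 on its own strand, and its counts are uncertain for that reason too.

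The promoters of these genes were rich in CpG and in motifs of factors known for housekeeping and mitochondrial genes. RefSeq gave a start site for 68 of the 77 genes (build GRCm38.p6), and the 250 bases before it were searched on both strands. The ETS motif CCGGAAG, to which GABP (also named NRF2) binds, occurred in 15 of them (22.1%), against 9.48% of the promoters of 16453 other coding genes. The NRF1 motif, GCGC followed after any 2 bases by GCGC, occurred in 10 (14.7%), against 7.22% of the others. The YY1 motif AAGATGGCG occurred in 2 (2.94%), against 0.705% of the others. At least 1 of the 3 motifs was present in 26 of the 68 windows (38.2%), against 16.1% of the others. The median number of CpG dinucleotides was 17 in these windows, against 10 in the others. Windows with more CpG hold GC-rich motifs more often, and a match describes letters, not binding. The 4 windows shown are upstream of genes the results return to, with the motif matches in capitals. Mrpl52 has an ETS match on the minus strand (chr14:54426659-54426908, plus strand), Mrpl58 an ETS match on the plus strand (chr11:115403502-115403751, plus strand), Mrpl45 a pair of NRF1 matches (chr11:97315466-97315715, plus strand), and Mrps14 none of the 3 motifs (chr1:160194965-160195214, plus strand).
Mrpl52: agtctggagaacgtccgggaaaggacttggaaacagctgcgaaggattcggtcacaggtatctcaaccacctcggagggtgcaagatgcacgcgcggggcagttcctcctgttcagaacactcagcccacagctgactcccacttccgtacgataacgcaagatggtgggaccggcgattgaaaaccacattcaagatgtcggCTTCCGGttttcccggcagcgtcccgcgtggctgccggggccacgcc
Mrpl58: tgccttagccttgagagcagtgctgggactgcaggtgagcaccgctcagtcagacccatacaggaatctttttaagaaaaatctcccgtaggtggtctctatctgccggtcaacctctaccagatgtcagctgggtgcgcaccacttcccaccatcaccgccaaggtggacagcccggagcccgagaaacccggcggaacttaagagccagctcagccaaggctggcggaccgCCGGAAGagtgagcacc
Mrpl45: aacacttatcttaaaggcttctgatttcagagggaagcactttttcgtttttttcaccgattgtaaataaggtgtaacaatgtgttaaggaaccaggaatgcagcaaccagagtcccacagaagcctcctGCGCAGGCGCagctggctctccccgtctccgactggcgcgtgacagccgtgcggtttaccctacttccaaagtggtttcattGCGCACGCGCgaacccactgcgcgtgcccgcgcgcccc
Mrps14: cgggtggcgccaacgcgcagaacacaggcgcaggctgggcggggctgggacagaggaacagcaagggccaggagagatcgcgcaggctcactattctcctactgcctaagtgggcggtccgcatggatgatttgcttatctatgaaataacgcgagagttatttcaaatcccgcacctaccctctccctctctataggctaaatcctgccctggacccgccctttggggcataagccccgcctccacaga

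The summed level of the 77 genes differed little between the groups of the minocycline experiment. In PFC it was 1548.8, 1338.5 and 1338.8 CPM in CUMS_M libraries, 1328.9 and 1503.7 CPM in CUMS libraries, and 1427.1 and 1336.1 CPM in NAIVE libraries. In HC it was 1367.0, 1522.0 and 1292.5 CPM in CUMS_M libraries, 1360.5, 1402.3 and 1400.4 CPM in CUMS libraries, and 1439.1 and 1527.5 CPM in NAIVE libraries. The CUMS_M and CUMS libraries overlapped in both regions, and so did those of CUMS_M and NAIVE. HC CUMS was the exception, with all 3 libraries below both HC NAIVE libraries. The summed level of the large subunit was 2.22 to 2.52 times that of the small subunit over the 15 libraries, and 2.14 to 2.34 times over the 12 enrichment libraries.

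**Figure D1:**
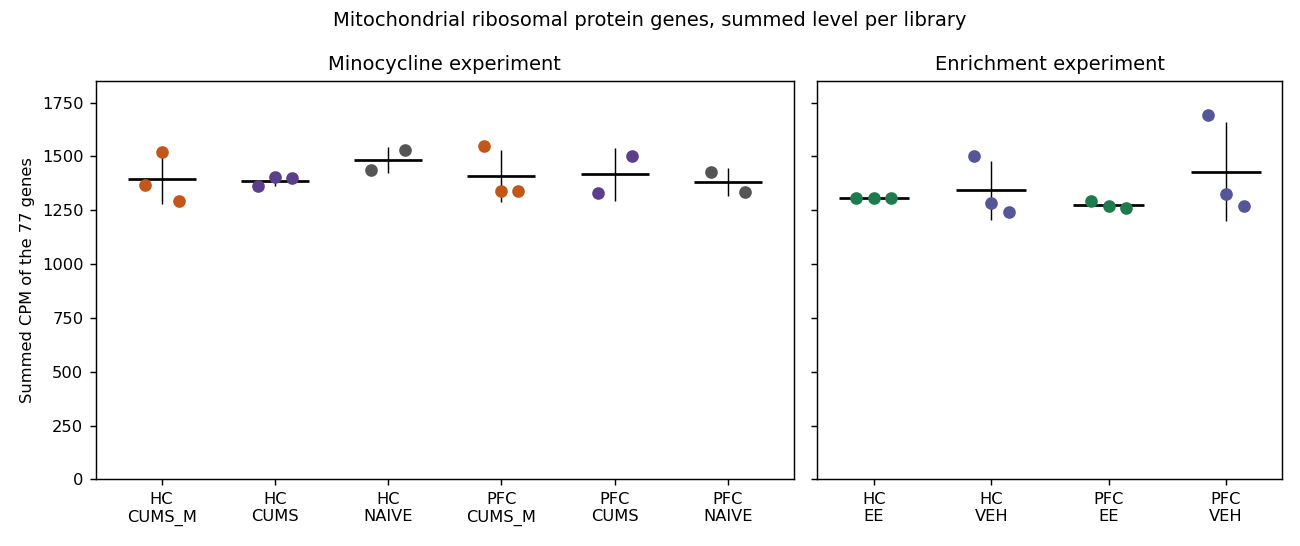
Summed CPM of the 77 mitochondrial ribosomal protein genes in each library (points), with the group mean (horizontal bar) and SD (vertical line), for the minocycline experiment on the left and the enrichment experiment on the right. Libraries range from 1292.5 to 1548.8 CPM on the left, and on the right PFC VEH 1 stands at 1691.2 CPM above all others.

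Minocycline under stress, the comparison that bears on a drug known to act on this ribosome, gave no called change in any of the 77 genes in either region. These are mRNA levels. Protein levels and translation by the ribosome were not measured, so the values do not show whether the drug acted on it. A gene was called when its adjusted p was under 0.05 in the edgeR quasi-likelihood test over all genes. In PFC, 0 of 77 members were called in CUMS_M against CUMS, where 0.0206% of all 14579 genes tested were. In HC, 0 of 77 were called, where 0.00686% of all genes were. At an unadjusted p under 0.05 there was 1 member in each region (1.3%), against 5.54% of all genes in PFC and 4.01% in HC, and the DESeq2 Wald test also called 0 members in both. The median log2 fold change of the members was 0.016 in PFC and 0.010 in HC, beside 0.016 and 0.0073 over all genes. Without PFC CUMS_M 3, which had choroid plexus markers, the PFC median was 0.0061 with 0 called. In PFC 41 members lay above 0 and 36 below, and in HC 42 and 35. Of the 77 genes, 38 had the same sign in both regions (22 above 0 and 16 below). The groups of libraries did not overlap for 3 higher and 4 lower members in PFC, against 8.98% and 12% of all genes, and for 1 higher and 2 lower in HC, against 6.04% and 4.27% of all genes. Markers of other cells separated the PFC groups too. The summed level was 301.4 to 477.2 CPM in CUMS_M and 707.7 to 770.0 CPM in CUMS for 10 astrocyte markers, 252.6 to 378.4 and 652.1 to 685.8 CPM for 8 oligodendrocyte markers, 70.62 to 100.02 and 166.3 to 210.7 CPM for 10 endothelial and mural markers, and 6.98 to 15.7 and 21.1 to 26.5 CPM for 8 neuron markers. None of these markers was at 0 in all libraries, and 1 endothelial marker was called, lower. In HC only the neuron markers separated the groups, at 7.37 to 8.267 CPM in CUMS_M and 8.295 to 9.48 CPM in CUMS (0 of 8 called). The part of all these markers in the members' values was not tested.

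The intervals show, gene by gene and for library-to-library spread only, what size of change the values leave room for. The 95% interval of the log2 fold change lay within 1 of 0, that is, within 2-fold, for 75 of the 77 members in PFC and for all 77 in HC. The largest bound was 1.14 in PFC and 0.82 in HC. The small subunit had a median of -0.037 over 26 genes in PFC and 0.0068 in HC, and the large subunit had 0.030 over 50 genes in both regions. Proteins with a bacterial counterpart and those specific to mitochondria did not separate either, with medians between -0.05 and 0.06 in all 4 classes of both regions.

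Small-subunit proteins with a bacterial counterpart lie nearest the site where tetracyclines bind, and 16 of them were measured. In PFC all CUMS_M libraries lay below both CUMS libraries for Mrps9 (-0.25 ± 0.16, SE) and Mrps11 (-0.21 ± 0.21, SE). The groups overlapped for the other 14. Of all genes, 12% lay lower without overlap in PFC and 8.98% higher. In HC the groups overlapped for all 16, where 4.27% of all genes lay lower without overlap and 6.04% higher. Mrps12, Mrps7, Mrps10 and Mrps14 lie on the decoding side or close to that site and are given library by library or by their intervals. Mrps12, a protein of the decoding centre, had 14.03, 12.9 and 11.51 CPM in PFC CUMS_M, against 11.3 and 16.05 CPM in PFC CUMS. In HC it had 12.9, 16.7 and 13.3 CPM in CUMS_M, against 13.9, 16.1 and 15.3 CPM in CUMS. The groups overlapped in both regions, with log2 95% intervals of -0.53 to 0.34 and -0.46 to 0.30. Mrps7, which binds the head of the small-subunit RNA, had 24.2, 37.2 and 22.4 CPM in PFC CUMS_M, against 24.8 and 26.6 CPM in PFC CUMS. In HC it had 28.9, 27.8 and 27.1 CPM in CUMS_M, against 29.3, 24.8 and 26.6 CPM in CUMS. One PFC library, CUMS_M 2, was high for Mrps7, and the groups overlapped in both regions. Mrps10, whose bacterial counterpart S10 is a site of tetracycline-resistance mutations, had 14.9, 9.53 and 11.9 CPM in PFC CUMS_M, against 11.8 and 11.1 CPM in PFC CUMS. In HC it had 10.7, 12.7 and 8.07 CPM in CUMS_M, against 9.92, 13.6 and 9.69 CPM in CUMS. Here too the groups overlapped in both regions, with intervals of -0.45 to 0.62 in PFC and -0.55 to 0.39 in HC. Mrps14, another protein of the head, had intervals of -0.56 to 0.46 and -0.42 to 0.48.

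Large-subunit members gave the smallest p-values of the minocycline comparisons, and none passed the adjusted threshold. Mrpl3, which reaches toward the peptidyl transferase centre, had 30.2, 29.1 and 22.4 CPM in PFC CUMS_M, against 32.7 and 38.4 CPM in PFC CUMS. All CUMS_M libraries were lower than both CUMS libraries, at a log2 fold change of -0.39 ± 0.18 (SE; edgeR adjusted p = 0.818). In HC Mrpl3 had 29.4, 36.1 and 27.5 CPM in CUMS_M, against 28.2, 26.7 and 30.1 CPM in CUMS, and the groups overlapped. The difference between the regional effects on Mrpl3 was 0.51 ± 0.24 (SE; edgeR adjusted p = 0.999). That difference was called for 0 of 77 members, where 0.00686% of all genes were called, and 1 member (1.3%) had an unadjusted p under 0.05, against 3.47% of all genes. Mrpl50, a mitochondrion-specific protein, had 15.5, 25.3 and 21.8 CPM in HC CUMS_M, against 16.8, 15.2 and 15.3 CPM in HC CUMS. CUMS_M 2 and 3 were high and CUMS_M 1 lay within the CUMS range, at 0.40 ± 0.17 (SE; edgeR adjusted p = 1). The next smallest p-values were those of Mrpl9 (-0.29 ± 0.18) and Mrps9 (-0.25 ± 0.16) in PFC, and of Mrpl40 (0.35 ± 0.23) and Mrps11 (0.25 ± 0.18) in HC. Mrpl12, the stalk protein that recruits translation factors, and Mrpl58, a peptidyl-tRNA hydrolase built into the large subunit, had 95% intervals within -0.55 to 0.39 in both regions.

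**Figure D2:**
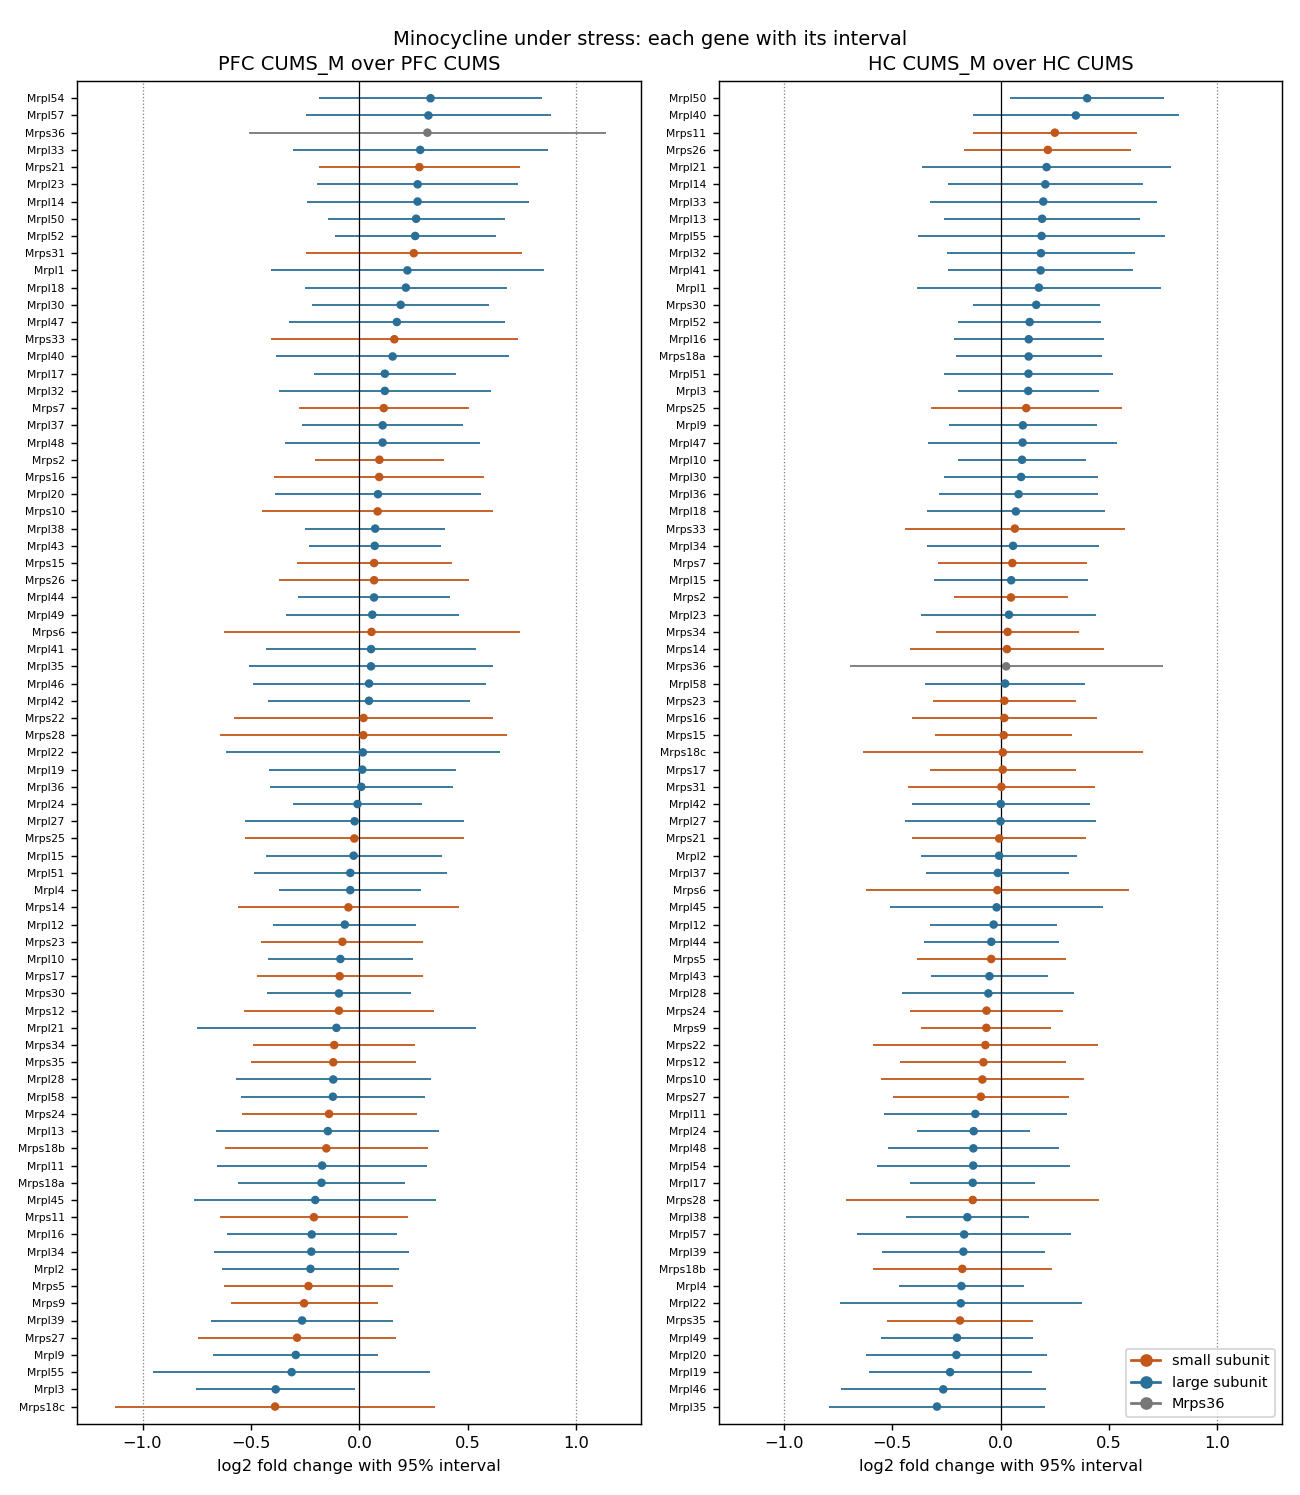
Log2 fold change of CUMS_M over CUMS for each of the 77 genes, in PFC (left) and HC (right), with 95% intervals, coloured by subunit and ordered by value within each panel. Dotted lines mark 1 and -1. In HC every interval lies between them, and in PFC 75 of 77 do.

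Other parts of mitochondrial translation were read from lists chosen with earlier results of these data known. In CUMS_M against CUMS, 0 members were called in either region among 5 subunits of this ribosome with other names (such as Dap3 and Ptcd3), 15 translation factors, 23 assembly factors and 17 mitochondrial aminoacyl-tRNA synthetases. The ATF4 targets that respond to impaired mitochondrial translation (15 tested) and the mitochondrial chaperones and proteases (12 tested) also had 0 called. Of 13 listed mRNAs made from mitochondrial DNA, 8 were tested. Their medians were 0.32 in PFC, all 8 above 0, and 0.20 in HC, 6 of 8 above 0, with 0 called in either. Their summed level overlapped between the groups in both regions. It ran from 7484 to 10482 CPM in PFC CUMS_M and from 6530 to 8307 CPM in PFC CUMS. In HC it ran from 6022 to 7921 CPM in CUMS_M and from 4798 to 7217 CPM in CUMS.

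Stress alone was examined in CUMS against NAIVE. In PFC, 0 of 77 members were called, where 0.816% of all genes were, and in HC 0 of 77, where 0% of all genes were. At an unadjusted p under 0.05 there were 6 members in PFC (7.79%) and 0 in HC, against 13.7% and 2.87% of all genes, and the DESeq2 Wald test called 0 members in both. In PFC the median of the members was 0.091, beside 0.021 over all genes, with 42 above 0. In HC it was -0.10, beside -0.0067 over all genes, with 58 of 77 below 0. Without HC NAIVE 2 the HC median was -0.017. In HC 15 members had all CUMS libraries below both NAIVE libraries, against 10.1% of all genes, and 3 had them all above, against 10.3%. In HC 38 of 50 large-subunit genes lay below 0 (median -0.14), and so did 19 of 26 of the small subunit (median -0.040). In PFC the medians of proteins with a bacterial counterpart were 0.19 (16 of the small subunit) and 0.17 (30 of the large subunit). Those of mitochondrion-specific proteins were -0.11 (10 of the small subunit) and -0.13 (20 of the large subunit). In HC the medians of all these classes lay below 0. In PFC the CUMS libraries also stood apart in markers of microglia and of other cells. The 10 microglial markers summed to 44030 to 47020 CPM in CUMS and 51120 to 54740 CPM in NAIVE (0 called). Border macrophage and monocyte markers stood at 566.2 to 632.8 and 431.5 to 553.0 CPM (0 of 8 called). The summed level was 707.7 to 770.0 CPM in CUMS and 223.2 to 259.0 CPM in NAIVE for astrocyte markers (6 of 10 called higher), 166.3 to 210.7 and 74.36 to 99.59 CPM for endothelial and mural markers (3 of 10 called higher), and 1543 to 2037 and 2944 to 4190 CPM for neutrophil markers (0 of 8 called). In HC it was 440.9 to 502.0 CPM in CUMS and 280.2 to 341.9 CPM in NAIVE for astrocyte markers, 643.3 to 795.1 and 469.9 to 470.0 CPM for oligodendrocyte markers, and 147.6 to 407.6 and 648.1 to 1402 CPM for neutrophil markers, with 0 called. In PFC the sums of neuron markers overlapped, at 21.06 to 26.5 CPM in CUMS and 8.011 to 58.55 CPM in NAIVE (1 of 8 called higher). None of these markers was at 0 in all libraries, but Gjb6, Kcnj8, Slco1a4, Tek, Gad1, Stmn2 and Syt1 were in at least 1. The part of these markers in the members' values was not tested.

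The member with the smallest p under stress was Mrpl21, a large-subunit protein with a bacterial counterpart. It had 10.01 and 10.02 CPM in PFC CUMS, against 4.97 and 5.05 CPM in PFC NAIVE. The groups, of 2 libraries each, did not overlap, at a log2 fold change of 0.998 ± 0.357 (SE; edgeR adjusted p = 0.21). Raw counts were 130 and 108 in PFC CUMS, and 38 and 41 in PFC NAIVE. In HC Mrpl21 had 5.18, 7.22 and 10.2 CPM in CUMS, against 5.98 and 11.1 CPM in NAIVE, where the groups overlapped. The difference between the regional effects was -1.17 ± 0.47 (SE; edgeR adjusted p = 0.693). Mrpl50 had 15.3 and 17.4 CPM in PFC CUMS, against 21.3 and 25.6 CPM in PFC NAIVE, at -0.52 ± 0.21 (SE; edgeR adjusted p = 0.287). Mrps35 had 14.3 and 17.9 CPM in PFC CUMS, against 10.98 and 12.3 CPM in PFC NAIVE, at 0.46 ± 0.20 (SE; edgeR adjusted p = 0.328). Both genes separated the groups, with 2 libraries on each side. Separation was frequent in CUMS against NAIVE in PFC. There 20 members were all higher and 9 all lower, against 24.2% and 19.4% of all genes. In HC the smallest p-values were those of Mrps16 (-0.42), Mrpl40 (-0.47) and Mrpl33 (-0.46), each with an adjusted p of 1. The HC effect minus the PFC effect of stress had a median of -0.13 over the members, beside -0.036 over all genes, with 0 of 77 called (0% of all genes) and 4 at an unadjusted p under 0.05 (5.19%, against 6.27% of all genes). Its 95% intervals lay within 1 of 0 for 47 members, so it was the least precise comparison.

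CUMS_M against NAIVE, which shares its NAIVE libraries with the stress comparison, had 0 of 77 members called in PFC (0.0892% of all genes) and 0 of 77 in HC (0% of all genes). At an unadjusted p under 0.05 there were 6 members in PFC (7.79%) and 1 in HC (1.3%), against 13.95% and 2.33% of all genes. The groups of libraries did not overlap for 12 higher and 6 lower members in PFC, against 13.9% and 11.4% of all genes. In HC they did not overlap for 0 higher and 11 lower members, against 9.54% and 8.16% of all genes. Medians were 0.049 in PFC and -0.093 in HC, beside 0.029 and -0.0017 over all genes. The PFC median was -0.050 without PFC NAIVE 2 and 0.10 without PFC CUMS_M 3, and the HC median was -0.015 without HC NAIVE 2. Astrocyte markers stood at 301.4 to 477.2 CPM in PFC CUMS_M and 223.2 to 259.0 CPM in PFC NAIVE (1 of 10 called higher). Microglial markers stood at 43960 to 50450 and 51120 to 54740 CPM (0 of 10 called), and the part of both was not tested. The smallest p-values in PFC were those of Mrps18b (-0.66 ± 0.22), Mrpl23 (0.65 ± 0.23) and Mrpl1 (0.89 ± 0.32). Mrps18b had 14.3, 12.4 and 10.8 CPM in PFC CUMS_M, against 22.9 and 16.6 CPM in PFC NAIVE, without overlap (edgeR adjusted p = 0.221). In HC the smallest was that of Mrpl17, at 30.5, 32.0 and 27.8 CPM in CUMS_M, against 39.4 and 36.3 CPM in NAIVE, a log2 fold change of -0.33 with an edgeR adjusted p of 1.

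One member showed how much a single library can weigh here. Mrpl45, which faces the inner membrane at the exit of the peptide tunnel, varied most over the minocycline libraries, with a coefficient of variation of 27.3%. It had 33.1 CPM in PFC NAIVE 1 and 13.2 CPM in PFC NAIVE 2, while the other 13 libraries lay between 14.48 and 22.0 CPM. With both NAIVE libraries, CUMS_M against NAIVE in PFC gave -0.53 ± 0.27 (SE; edgeR adjusted p = 0.38). Without PFC NAIVE 2 it gave -1.05 ± 0.22 (SE; edgeR adjusted p = 0.0129), the 1 call among the members in that contrast, where 3.91% of all genes were called, with a lone NAIVE library assumed to vary like the other groups.

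**Figure D3:**
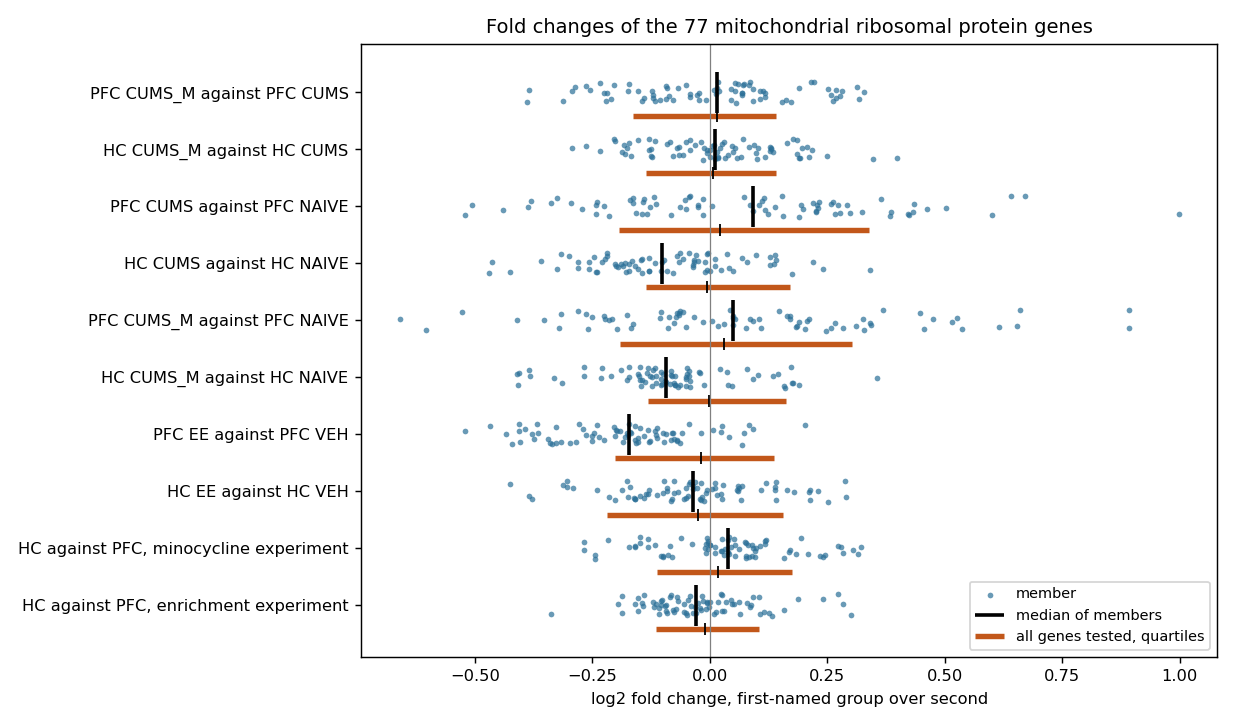
Log2 fold changes of the 77 genes in each contrast (points), the first-named group over the second, with their median (black bar) and, below each row of points, the quartiles and median of all genes tested (orange bar and tick). Medians of the members lie between -0.17 for EE over VEH in PFC and 0.09 for CUMS over NAIVE in PFC.

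With environmental enrichment most members lay lower in PFC, mostly through 1 vehicle library, and none was called. In PFC, 0 of 77 members were called in EE against VEH, where 0% of all 15921 genes were. In HC, 0 of 77 were called, where 0% of all genes were. At an unadjusted p under 0.05 there were 3 members in each region (3.9%), against 4.25% of all genes in PFC and 10.4% in HC, and the DESeq2 Wald test called 0 members in both. In PFC 68 of 77 members lay below 0, at a median of -0.17, beside -0.020 over all genes. In HC 49 of 77 lay below 0, at a median of -0.035, beside -0.025 over all genes. The summed level in PFC was 1291.6, 1268.9 and 1262.1 CPM in EE, against 1691.2, 1323.2 and 1271.1 CPM in VEH. In HC it was 1308.9, 1304.6 and 1305.1 CPM in EE, against 1499.6, 1285.8 and 1242.5 CPM in VEH. In both regions VEH 1 was high and the other VEH libraries were near the EE libraries. Taken by equal replicate number, EE minus VEH in PFC was -399.6, -54.3 and -9.0 CPM, lower in 3 of 3. In HC, where libraries of equal number did not deviate together, it was -190.7, 18.8 and 62.6 CPM. With the replicate number as a block the PFC median was -0.17 and the HC median -0.028, with 0 called in both. In HC markers of other cells separated EE from VEH, with 0 called. They stood at 642.4 to 872.2 and 433.2 to 548.0 CPM for astrocytes, and 455.6 to 809.2 and 237.4 to 304.2 CPM for oligodendrocytes. For choroid plexus they stood at 512.2 to 1989 and 0.613 to 213.9 CPM, and for border macrophages and monocytes at 507.2 to 654.2 and 306.2 to 377.2 CPM. Their part was not tested. Without PFC VEH 1 the PFC median was -0.026, with 36 of 77 members above 0.

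PFC VEH 1 held the highest value of the 12 enrichment libraries for 49 of the 77 members (63.6%), and HC VEH 1 for another 10. Mrpl14, a large-subunit protein, varied most, with a coefficient of variation of 36.8%. It had 8.60, 9.32 and 8.15 CPM in PFC EE, against 20.7, 10.1 and 6.68 CPM in PFC VEH. Mrps14 had 11.52, 12.9 and 11.8 CPM in PFC EE, against 22.9, 14.99 and 12.4 CPM in PFC VEH. For both genes PFC VEH 1 alone was far above the rest, and the groups overlapped. Mrps12 had 8.86, 9.75 and 10.45 CPM in PFC EE, against 14.2, 11.2 and 9.26 CPM in PFC VEH, with the same library high.

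The members with the smallest p in PFC were Mrpl47, Mrpl16 and Mrpl32, all lower in EE and all with an edgeR adjusted p of 0.986. Mrpl47 had 8.50, 9.22 and 8.49 CPM in PFC EE, against 13.5, 10.95 and 10.6 CPM in PFC VEH, a log2 fold change of -0.42 ± 0.19 (SE). Mrpl32 had 9.31, 9.84 and 10.99 CPM in PFC EE, against 13.8, 12.3 and 12.97 CPM in PFC VEH, a log2 fold change of -0.37 ± 0.17 (SE). Unlike Mrpl14, Mrpl47 and Mrpl32 separated EE from VEH in all libraries. In HC Mrpl32 had 10.7, 13.4 and 9.42 CPM in EE, against 16.2, 12.4 and 15.2 CPM in VEH, with overlap. The smallest p in HC was that of Mrps17, whose bacterial counterpart binds the small-subunit RNA directly. It had 20.95, 23.5 and 23.9 CPM in EE, against 27.9, 28.2 and 28.3 CPM in VEH, a log2 fold change of -0.30 ± 0.13 (SE; edgeR adjusted p = 0.427). Mrps10 also lay lower without overlap, at 17.2, 12.5 and 12.4 CPM in HC EE, against 17.9, 17.6 and 21.1 CPM in HC VEH (-0.43 ± 0.19, SE; edgeR adjusted p = 0.471). Members whose groups did not overlap numbered 5 in PFC, all lower, against 4.39% of all genes. In HC 3 were lower and 2 higher, against 6.36% and 9.66% of all genes. The HC effect minus the PFC effect of enrichment had a median of 0.14, beside 3.6e-05 over all genes, with 0 of 77 called (0% of all genes) and 2 at an unadjusted p under 0.05 (2.6%, against 4.21% of all genes), Mrpl18 (0.66 ± 0.25) and Mrpl27 (0.61 ± 0.26). Without PFC VEH 1 that median was -0.045.

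Leaving out the libraries whose choroid plexus level goes against their region leaves PFC EE 1 alone against PFC VEH 1, and all HC EE libraries against HC VEH 3. The count of called members then became 2 in PFC, both lower (Mrpl14, -1.27 ± 0.33, and Mrpl16, -0.98 ± 0.24), and 1 in HC, higher (Mrpl28, 0.99 ± 0.24). Of all genes, 1.92% were then called in PFC and 5.82% in HC, beside 2.6% and 1.3% of the members. The HC median of the members was then 0.080, against -0.035 with all libraries, and the PFC median -0.44, against -0.17. The lone libraries were assumed to vary like the other groups. HC VEH 3, the lone HC library, had the highest summed mRNA from mitochondrial DNA in the enrichment table, 18168 CPM against a median of 5603 CPM. Of the mRNAs made from mitochondrial DNA, all 8 lay below 0 in HC EE against HC VEH, at a median of -0.98 with 0 called.

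The members deviated by library together with short coding genes, though most members are not short themselves. In PFC VEH 1 the median deviation of the 77 genes from their own means was 0.39 (log2 CPM), with 72 of 77 above. It was 0.41 for other coding genes with under 1500 exon bases and -0.14 for those with over 6000. In HC VEH 1 the medians were 0.22 for the members, 0.23 for the short genes and -0.07 for the long genes. Over all libraries, the members and the short genes deviated with the same sign in 12 of 15 minocycline libraries and in 9 of 12 enrichment libraries. The members and the long genes did so in 3 of 15 and 2 of 12. The gap between the members and the short genes was at most 0.08 in the minocycline table and 0.09 in the enrichment table. Among the 77 genes themselves, 19 had under 1500 exon bases and 12 had over 6000. In PFC VEH 1 the medians of these classes were 0.51 and 0.30, and in HC VEH 1 they were 0.23 and 0.24. The long members thus lay above 0 in these libraries, where other long coding genes lay below. RNA quality per library is not given in the labels used here, and its part was not tested.

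**Figure D4:**
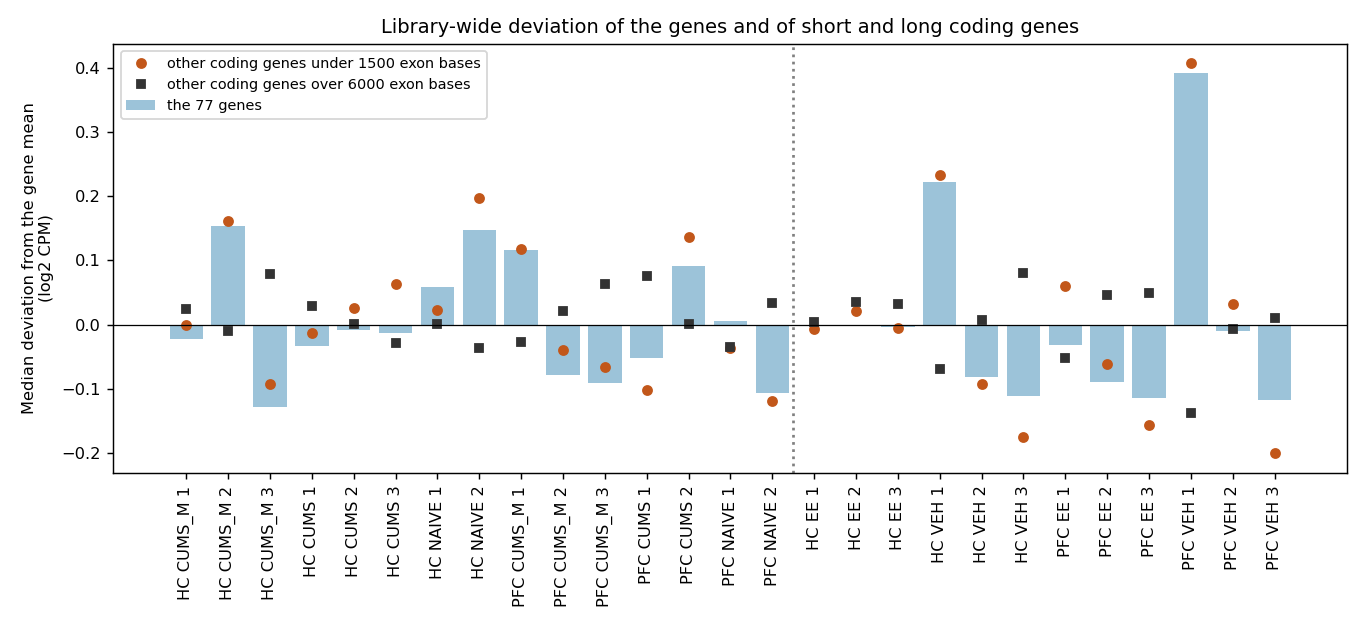
Median deviation from the gene mean (log2 CPM) in each library for the 77 genes (bars), for other coding genes with under 1500 exon bases (circles) and for those with over 6000 (squares). Bars and circles lie at 0.39 and 0.41 in PFC VEH 1 and at 0.22 and 0.23 in HC VEH 1, where the squares are below 0.

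Member by member, a single component carried 51.8% of the variance of the 77 genes in the enrichment table and 23.9% in the minocycline table. Over all genes tested the first component carried 27.0% in the enrichment table and 30.5% in the minocycline table. The median SD over libraries was 0.23 (log2 CPM) for the members in both tables, beside 0.24 and 0.25 for other coding genes. The most even members were Mrpl38 in the minocycline table (coefficient of variation 8.84%) and Mrpl9 in the enrichment table (7.10%).

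**Figure D5:**
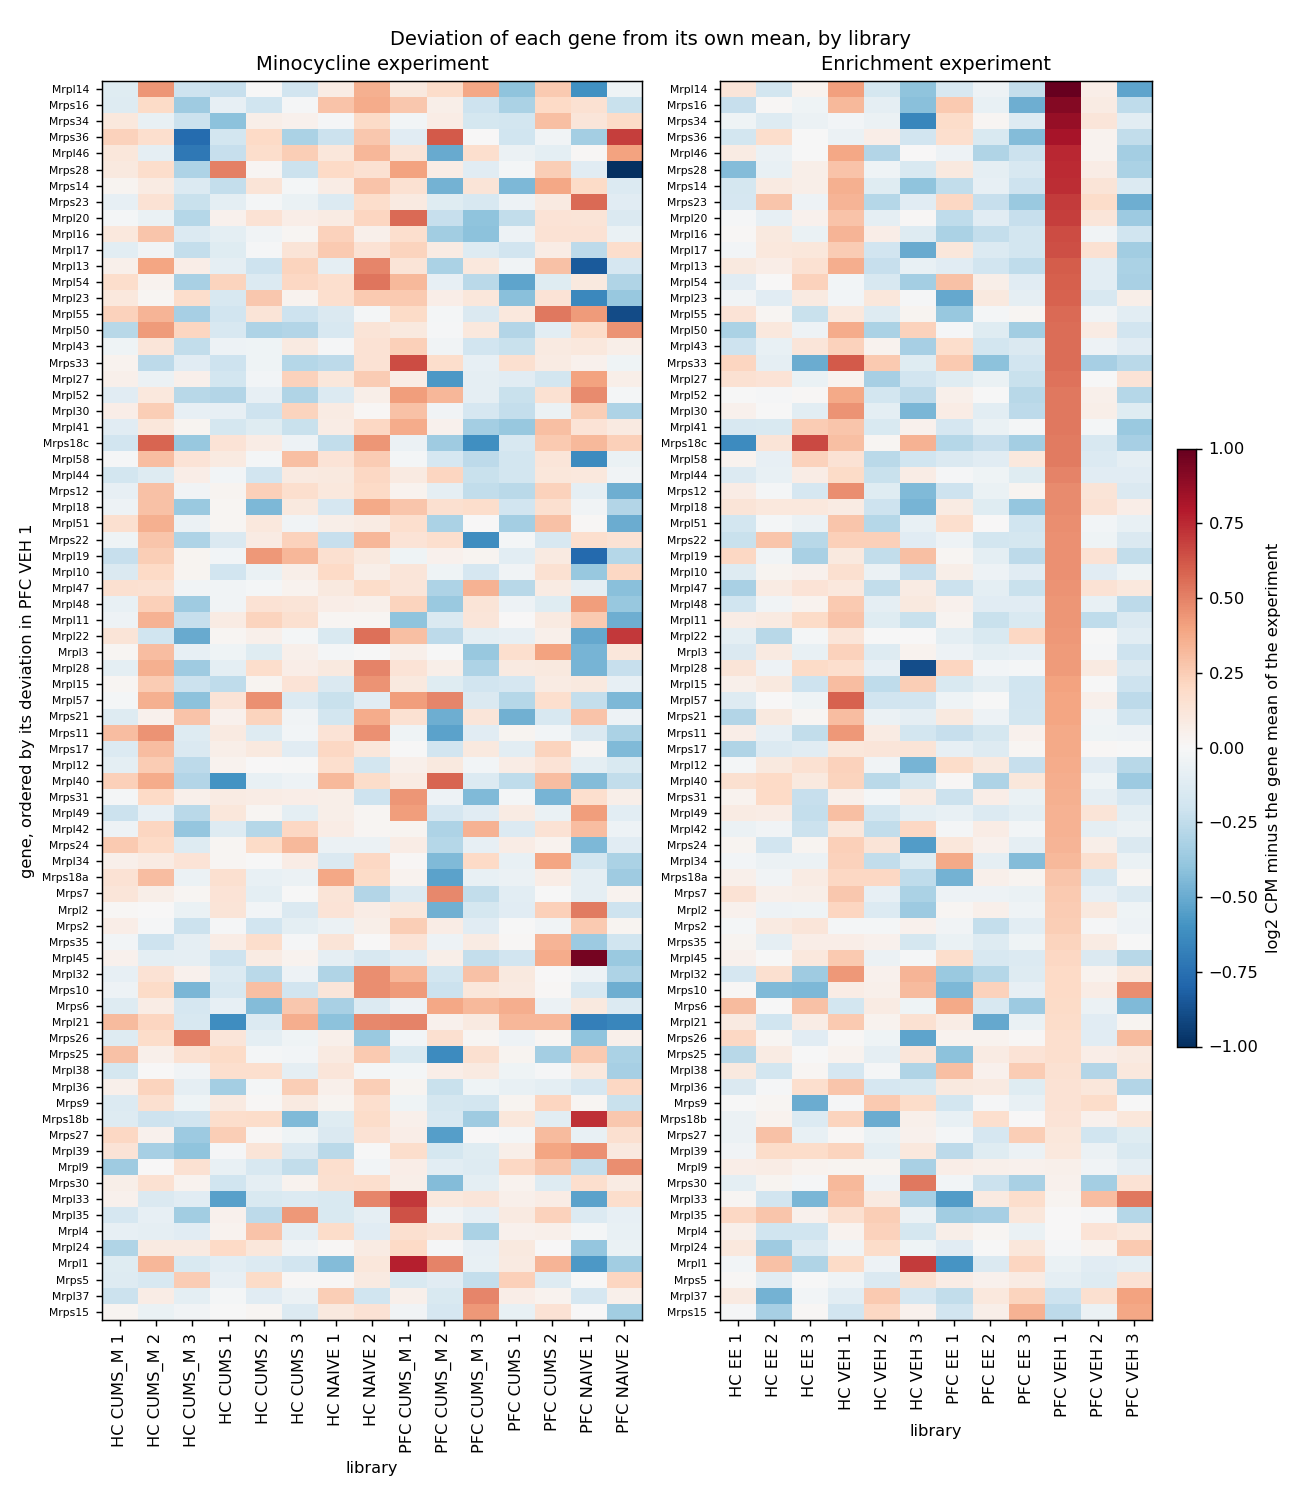
Deviation of each of the 77 genes (rows, ordered by the value in PFC VEH 1) from its own mean in log2 CPM, for each library (columns) of the minocycline experiment (left) and the enrichment experiment (right), with colours ending at 1 and -1. The column of PFC VEH 1 is red for 72 of 77 genes, while no minocycline library has more than 61 of 77 genes above their means.

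Region was compared over all treatments with equal weight. In the minocycline experiment 0 of 77 members were called in HC against PFC, where 5.1% of all genes were, 500 higher and 244 lower. At an unadjusted p under 0.05 there were 7 members (9.09%), against 18.97% of all genes, and the DESeq2 Wald test called 0 members. The median was 0.039, beside 0.018 over all genes, with 49 above 0, and all 77 intervals lay within 1 of 0. Without PFC CUMS_M 3 the median was 0.020 with 0 called. No member separated the regions, as did 0.761% of all genes upwards and 0.487% downwards. Mrpl58 had the smallest p, with 14.52 to 18.3 CPM (median 16.2) in 8 HC libraries, against 9.54 to 16.05 CPM (median 13.1) in 7 PFC libraries. All 8 HC libraries lay above the PFC median but overlapped the PFC range, at 0.32 ± 0.12 (SE; edgeR adjusted p = 0.127). Mrps11, a protein of the small-subunit platform, had 13.8 to 20.8 CPM (median 16.4) in HC, against 10.48 to 15.5 CPM (median 14.04) in PFC, at 0.32 ± 0.12 (SE; edgeR adjusted p = 0.146). Mrpl52, the member of highest level, had 32.2 to 42.7 CPM (median 36.5) in HC, against 34.0 to 55.2 CPM (median 44.2) in PFC, at -0.27 ± 0.10 (SE; edgeR adjusted p = 0.149). Without PFC NAIVE 2, 3 members were called: Mrpl58 (0.43, edgeR adjusted p = 0.0406), Mrpl52 (-0.34, adjusted p = 0.0465) and Mrpl45 (-0.39, adjusted p = 0.0454). That is 3.9% of the members, where 6.3% of all genes were called. Without the other libraries in turn, 0 members were called.

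In the enrichment experiment 0 of 77 members were called in HC against PFC, where 0% of all genes were, and 0 had an unadjusted p under 0.05, against 2.08% of all genes. The median was -0.030, beside -0.010 over all genes, with 28 above 0. Mrpl58 had 11.53 to 16.4 CPM (median 13.7) in 6 HC libraries, against 12.6 to 19.9 CPM (median 12.99) in 6 PFC libraries. The ranges overlapped, and the fold change was near 0 (-0.06 ± 0.14, SE; edgeR adjusted p = 1). The smallest p-values were those of Mrpl35 (0.28 ± 0.14), Mrpl39 (0.19 ± 0.10) and Mrps34 (-0.34 ± 0.18), each with an edgeR adjusted p of 1. Without the libraries whose choroid plexus level goes against their region, 10 members (13%) were called, all lower in HC, where 11.8% of all genes were called, among them Mrpl12 (-0.47 ± 0.15), Mrpl17 (-0.59 ± 0.14), Mrpl28 (-0.71 ± 0.17), Mrps16 (-0.83 ± 0.21) and Mrps34 (-0.88 ± 0.23). In that comparison PFC rests on PFC VEH 1 and PFC EE 1, and PFC VEH 1 is the library in which the members were highest.

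Among the lists of mitochondrial translation, the single set of calls in any contrast was in mRNAs made from mitochondrial DNA, the products of which this ribosome makes. In HC against PFC of the minocycline experiment 3 of 8 were lower and 0 higher. These were mt-Nd5 and mt-Nd2, subunits of complex I, and mt-Cytb, of complex III, which was named after its values were seen. mt-Nd5 averaged 619 ± 133 CPM in HC and 1023 ± 201 CPM in PFC (SD, n = 8 and n = 7), a log2 fold change of -0.71 ± 0.14 (SE; edgeR adjusted p = 0.0163). mt-Nd2 averaged 369 ± 88.8 CPM in HC and 645 ± 146 CPM in PFC, a log2 fold change of -0.80 ± 0.19 (SE; edgeR adjusted p = 0.041). mt-Cytb gave -0.71 ± 0.17 (SE; edgeR adjusted p = 0.041). The count was 0 with the replicate number as a block, without PFC CUMS 1, without PFC CUMS 2 and without PFC NAIVE 1, and 1 to 4 without any other library. Markers of other cells moved with region as well. Between HC and PFC 5 of 10 endothelial and mural markers, 3 of 10 astrocyte markers and 6 of 6 choroid plexus markers were called higher, and 1 of 8 neutrophil and 2 of 8 neuron markers were called lower. The summed neutrophil markers ran from 147.6 to 2104 CPM in HC and from 502.2 to 4190 CPM in PFC, those of endothelial and mural cells from 123.4 to 263.5 and from 70.62 to 210.7 CPM, those of astrocytes from 280.2 to 550.2 and from 223.2 to 770.0 CPM, and those of neurons from 7.32 to 9.48 and from 6.98 to 58.5 CPM. Their part in the result was not tested. PFC NAIVE 1 had the highest summed level of the mRNAs from mitochondrial DNA, 12646 CPM against a median of 7484 CPM. The 77 nuclear genes of the ribosome had a median of 0.039 in that contrast. In the enrichment experiment, 7 of the 8 mRNAs lay above 0 in HC against PFC, at a median of 0.46 with 0 called.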

How the data were processed

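RNA-seq of sorted CD11b+ cells gave strand-specific polyA libraries, sequenced as read pairs, per the labels. The deposited files are raw gene count tables from the authors, 1 for each experiment. Per the submitters' processing notes, Trimmomatic 0.36, STAR 2.6.1b, Picard 2.17.1, featureCounts 1.5.3 and DESeq2 1.24.0 were used with mm10 (GRCm38). The strand setting and annotation release are not given in the sources used here.

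Identifiers were matched to GENCODE M21, which named 53412 of 53412 and 55240 of 55421. Genes passing filterByExpr (minimum count 10, minimum total 15) were tested, 14579 and 15921, including all 77 members. After TMM scaling, edgeR's robust quasi-likelihood F-test was run with 1 mean per group, each table fitted alone. Benjamini-Hochberg adjustment covered all genes, and a call is an adjusted p under 0.05. CPM uses the scaled library size, and library deviations use log2 CPM with prior count 2. The fit was tested on simulated data with known changes. Software was edgeR 4.0.16 and DESeq2 1.42.0 in R 4.3.3, with pandas 2.3.3 and matplotlib 3.10.9 in Python 3.11.15.

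The members and lists were chosen with earlier results of these data known. Named genes are the called members, or where there are none the 3 of smallest p, plus Mrps7, Mrps10, Mrps12, Mrps14, Mrpl12 and Mrpl58, the 5 highest and 5 lowest by CPM per kb, and up to 2 called genes of a pathway list. Others were named after their values were seen (Mrpl14, Mrpl45, Mrpl28, Mrpl17, Mrpl38 and mt-Cytb).

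Replicate numbers were checked for pairing. Between PFC VEH and PFC EE, libraries of equal number deviated together (r = 0.359, 0.198 and 0.208, all over 0.1), which comes from the data and not the labels. In no other pair of groups were all values over 0.1. Between HC VEH and HC EE they were -0.239, -0.11 and -0.0647. Choroid plexus markers also followed the number in PFC. From replicate 1 to 3 they stood at 0.644, 723.8 and 734.1 CPM in PFC VEH and 12.0, 1135 and 231.5 CPM in PFC EE. Their part in the r values was not tested. The values printed come from the fit without the block, and blocked values stand beside them for EE against VEH. Alternatives were other scalings and filters, the DESeq2 Wald test, a replicate block, a fit restricted to the compared groups, and omission of each library in turn.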

Additional observations from a re-analysis of the deposited data

How the results depend on the processing

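The count of called members was 0 in all 13 contrasts under the DESeq2 size factors, upper-quartile factors, total-count scaling, both other count filters, DESeq2's Wald test, a replicate block and, within regions, a fit restricted to the compared groups. The replicate block, which treats equal numbers as a pairing, thus changed no call of a member. Leaving out 1 library gave 0 to 1 called members for CUMS_M against NAIVE in PFC and 0 to 3 for HC against PFC in the minocycline experiment, both highest without PFC NAIVE 2, and 0 in the other contrasts. Medians under such omissions ran from -0.10 (without PFC CUMS_M 1) to 0.077 for CUMS_M against CUMS in PFC, from -0.029 (without PFC CUMS 2) to 0.15 for CUMS against NAIVE in PFC, and from -0.25 to -0.026 (without PFC VEH 1) for EE against VEH in PFC. They ran from -0.059 to 0.053 for CUMS_M against CUMS in HC, from -0.14 to -0.017 (without HC NAIVE 2) for CUMS against NAIVE in HC, from -0.050 (without PFC NAIVE 2) to 0.11 and from -0.15 to -0.015 (without HC NAIVE 2) for CUMS_M against NAIVE in PFC and HC, and from -0.084 to 0.058 for EE against VEH in HC. For HC against PFC they ran from 0.011 to 0.063 in the minocycline table and from -0.078 to 0.078 (without PFC VEH 1) in the enrichment table. For the HC effect minus the PFC effect they ran from -0.11 to 0.087 (CUMS_M against CUMS), from -0.22 to -0.033 (CUMS against NAIVE) and from -0.045 to 0.24 (EE against VEH).

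One alternative was added after seeing the data, leaving out the 7 libraries whose choroid plexus level goes against the region label. It left the minocycline counts at 0, and gave 2 called for EE against VEH in PFC (median -0.44), 1 in HC (median 0.080, turned from -0.035), 10 for HC against PFC in the enrichment table (median -0.20) and 4 for the HC effect minus the PFC effect (median 0.59; Mrpl14, Mrpl16, Mrpl17 and Mrps14), where 2.72% of all genes were called. The cause was not tested. Of 1861 values of named members under the alternatives, 125 had another sign than the value reported. Over all 77 members and 13 contrasts, 21 calls of 14 members arose, 17 under that added alternative and 4 without PFC NAIVE 2. With 2 or 3 libraries a group, even the log2 difference of 0.998 ± 0.357 (SE) of Mrpl21 was not called, so smaller changes of single members in that contrast could have gone unseen.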

Other observations

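A few members stood at unlike levels in the 2 count tables, which were made separately, so no test was run across them. The mean level in the minocycline table over that in the enrichment table was 2.99 for Mrps34, 2.40 for Mrpl43, 1.75 for Mrps30 and 1.48 for Mrps27, the 4 highest of the 77 genes, and 0.651 for Mrps10, the lowest. Mrps34 had 18.7 to 30.7 CPM over the 15 minocycline libraries and 5.20 to 14.9 CPM over the 12 enrichment libraries, without overlap. Mrpl43 had 39.2 to 54.8 CPM and 15.25 to 28.3 CPM in the same libraries, without overlap either. Genes on the opposite strand share 63.4% of the exon bases of Mrps34, 33.4% of those of Mrpl43 and 24.2% of those of Mrps27. The same share is 69.8% for Mrps25, which had like levels in both tables (1.85 ± 0.31 and 1.84 ± 0.21 CPM per kb, SD). The part of overlapping transcripts in these gaps was not tested, and no contrast within a table draws on levels in the other.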
